A study of Mus musculus with 6 samples.

Results

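The interleukin-1 (IL-1) family and its receptors were followed in the mouse corneal limbus through 10 genes chosen by name: the ligands Il1a, Il1b, Il33 and Il18, the receptor antagonist Il1rn, the receptors Il1r1, Il1rl1 and Il1rap, the decoy receptor Il1r2, and Casp1. All 10 were in the count table, which held 39089 genes. Poly(A) RNA sequencing had been done on 6 limbus samples from mice labelled wild type, 3 in each of 2 groups. One group had received L-733,060, an antagonist of the neurokinin 1 (NK1) receptor, beneath the conjunctiva on days 0 and 3, and the other had received sterile water by the same route. Tissue was taken after a week, and the labels give the injection days for the antagonist only, so a difference in injection schedule and the drug cannot be told apart. The sources used here do not give strain, age or sex. The samples are called control 1 to 3 and L-733,060 1 to 3.

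IL-1α, the product of Il1a, and IL-1β, the product of Il1b, both signal through a receptor built from IL1R1 and the accessory chain IL1RAP. The protein of Il1rn occupies IL1R1 without signalling, and IL1R2 binds IL-1 but lacks a signalling domain. IL-33 uses ST2, the product of Il1rl1, with the same accessory chain, and IL-18 has its own receptor pair. IL-1β and IL-18 are made as inactive precursors that caspase-1, the product of Casp1, can cut, while IL-1α and IL-33 are stored in epithelial and stromal cells and are released on damage. In the ocular surface the family is known for starting the response of epithelium and stroma to injury. The NK1 receptor is the receptor of substance P, a neuropeptide of sensory nerves.

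The samples held 18708288 to 23541791 counts assigned to genes, and 3 counts, taken as the detection floor, corresponded to 0.127 to 0.16 CPM, the counts scaled to a common library size. Of all genes, 15712 had enough counts to be tested. The limbus lies between cornea and conjunctiva, and markers of both were present: the summed level of 5 corneal epithelial markers ran from 28806 to 39078 CPM in controls and from 2933 to 3871 CPM after L-733,060, and that of 5 conjunctival markers from 9878 to 11341 CPM and from 22919 to 28287 CPM. All 5 corneal markers fell, against 19.9% of all tested genes called lower at an edgeR adjusted p under 0.05. All 5 conjunctival markers rose, against 21.4% of all tested genes called higher. Of 4 activated keratinocyte markers 3 rose and 0 fell, their sum going from 12269 to 12995 CPM up to 19884 to 22575 CPM. Of 8 fibroblast and keratocyte markers 4 rose and 4 fell, and of 7 basal and limbal epithelial markers 3 rose and 2 fell. The part of these epithelial and stromal cells in the results below was not tested. The labels do not say whether the samples of a group came from separate mice, so the p-values reflect the spread among these libraries, which may be technical.

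All 10 genes of the family were higher after L-733,060. In edgeR's quasi-likelihood test, 10 of 10 passed an adjusted p of 0.05, against 41.3% of all tested genes in either direction. All 10 were called higher, against 21.4% of all tested genes, and 0 lower, against 19.9%. The 2 groups did not overlap for any of the 10, against 26.6% of all tested genes with every antagonist sample above every control. At least a doubling was seen for 6 of 10, against 10.7% of all tested genes. The median log2 fold change was 1.53, beside -0.0016 over all tested genes. Il1b reached the level of the count filter in 2 of 3 controls and Il1rl1 in 0 of 3, both passing with all L-733,060 samples, and over the 8 genes that reached it in every sample the median was 1.17. The rises fell into a steep set, Il1b, Il1rl1, Il33 and Casp1, at log2 fold changes from 3.31 to 4.90, and a shallower set of 6 from 0.53 to 1.72. These are levels in whole tissue, where more cells of a type and more RNA per cell cannot be told apart.

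**Figure D1:**
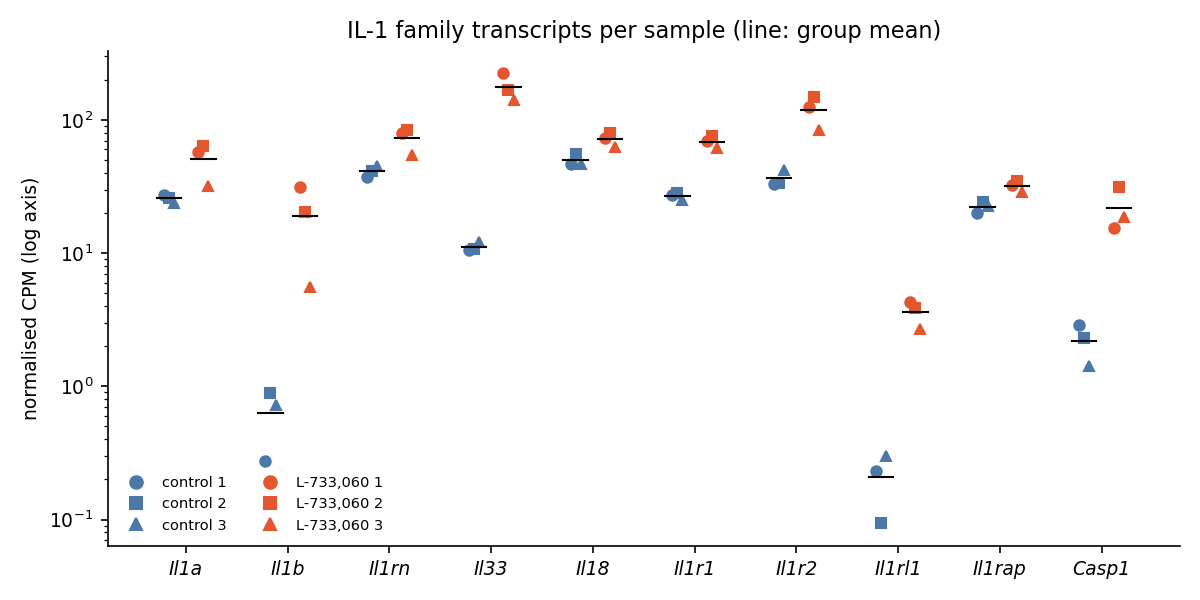
Normalised CPM (log axis) of the 10 genes in each sample, with controls in blue, L-733,060 samples in orange, circles, squares and triangles for samples 1, 2 and 3, and a line at each group mean. The groups are apart for every gene, and L-733,060 3 is the lowest antagonist sample for 9 of the 10.

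**Figure D2:**
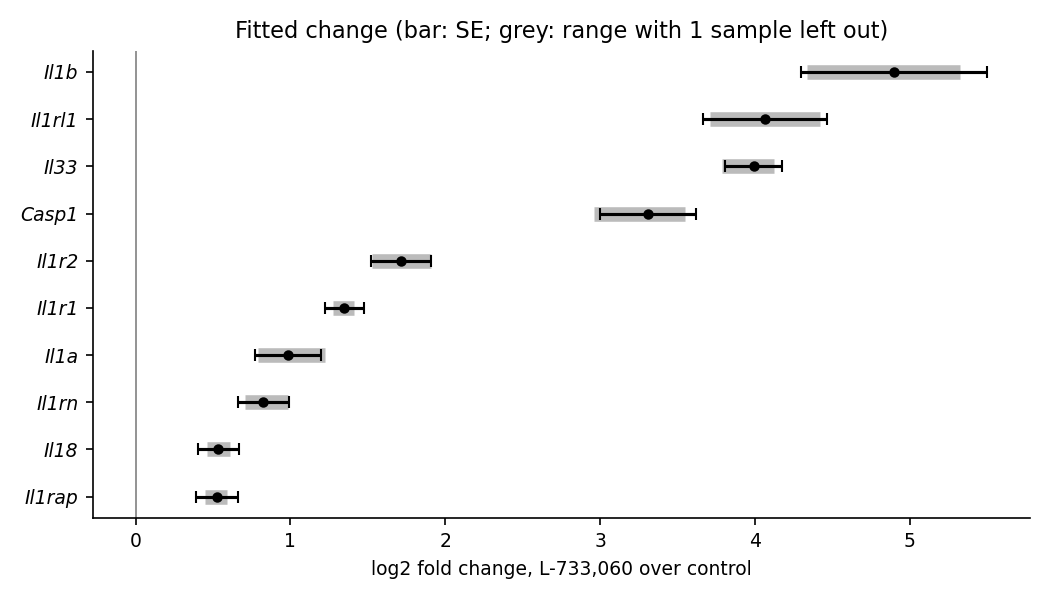
Fitted log2 fold change of each gene, L-733,060 over control, with its standard error (black bar) and the range when 1 sample is left out (grey). The values run from 0.53 for Il1rap to 4.90 for Il1b, and no range reaches 0.

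The 250 bases upstream of the start sites of Il1a, Il1b and Il33 are shown. These 3 ligands were picked because they share a letter sequence, TATAAA, at a similar distance from the start. The sequences are from RefSeq on GRCm38.p6, read 5′ to 3′ on the gene's strand and ending at the base before the start, with TATAAA and the AP-1 motif TGANTCA in capitals. The Il1a stretch is chr2:129309973-129310222 on the minus strand, the Il1b stretch chr2:129371140-129371389 on the minus strand, and the Il33 stretch, at the second of 2 annotated starts, chr19:29945540-29945789 on the plus strand. These starts are those of the promoter table, and all 3 stretches reach into or lie within the wider gene range that the RefSeq gene table gives (for Il1a, start 129309972 against a gene end at 129310186).
Il1a: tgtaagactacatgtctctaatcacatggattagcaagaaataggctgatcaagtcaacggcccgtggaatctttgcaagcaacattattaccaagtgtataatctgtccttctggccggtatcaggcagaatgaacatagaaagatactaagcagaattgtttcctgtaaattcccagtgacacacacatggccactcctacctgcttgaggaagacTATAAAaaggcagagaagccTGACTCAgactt
Il1b: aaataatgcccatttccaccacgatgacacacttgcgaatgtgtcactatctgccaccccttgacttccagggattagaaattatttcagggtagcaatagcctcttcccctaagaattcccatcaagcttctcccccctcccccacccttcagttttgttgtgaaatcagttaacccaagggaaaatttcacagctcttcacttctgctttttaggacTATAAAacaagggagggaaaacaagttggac
Il33: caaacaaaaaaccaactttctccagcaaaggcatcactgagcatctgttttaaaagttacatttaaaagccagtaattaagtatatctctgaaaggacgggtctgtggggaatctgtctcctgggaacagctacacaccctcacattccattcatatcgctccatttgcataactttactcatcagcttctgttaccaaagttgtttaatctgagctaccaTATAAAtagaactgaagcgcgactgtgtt
TATAAA begins 32 bases before the start of Il1a, 31 before that of Il1b and 29 before the second start of Il33. A TATAAA on the sense strand beginning 25 to 40 bases before the start was found in 3 of the 15 promoters annotated for the 10 genes, and in 1.91% of all 32851 RefSeq promoters of the same length. Over the whole window it was in 4 of 15 (26.7%) and in 7.59% of all promoters. TGANTCA, searched on both strands, was in 2 of 15 (13.3%), those of Il1a and Il1rn, and in 6.75% of all promoters. The NF-kB consensus, also searched on both strands, was in 1 of 15 (6.67%), the second start of Il1r1, and in 7.25% of all promoters. A match describes letters only and is not a measured binding site.

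Il1b, whose product is the secreted IL-1 of myeloid cells, had the steepest rise of the family. Its level was 0.278, 0.893 and 0.727 CPM in controls 1 to 3 and 31.3, 20.3 and 5.54 CPM in L-733,060 1 to 3. Controls were close to the detection floor, every antagonist sample was above them, and the antagonist samples themselves spanned 5.66-fold. Its log2 fold change was 4.90 ± 0.60 (SE), with an edgeR adjusted p of 6.19e-05, and it was 4.34 without L-733,060 1. Il1a, the IL-1 of epithelial cells, started from a higher level and rose less. It was at 27.5, 26.1 and 23.8 CPM in controls and at 57.4, 63.9 and 31.8 CPM after L-733,060. L-733,060 3 was only a little above the controls, and the other two were at about double. The log2 fold change of Il1a was 0.98 ± 0.21 (SE; edgeR adjusted p = 0.00318).

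The share of IL-1β transcripts within the pair, from length-scaled TPM, was 1.83%, 5.93% and 5.32% in controls 1 to 3. After L-733,060 it was 50.1%, 36.9% and 24.3%. Controls held mostly Il1a, whereas in L-733,060 1 the 2 ligands were at about equal level. The genes lie close together on mm10, both on the minus strand, with the small RNA gene Gm25703 between them, Il1a at chr2:129299609-129310186 and Il1b at chr2:129364569-129371164.

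Il1rn, encoding the receptor antagonist, also rose. It was at 37.2, 41.2 and 44.9 CPM in controls and at 79.5, 84.7 and 54.5 CPM after L-733,060. All 3 antagonist samples were above the controls, with L-733,060 3 nearest to them. Il1rn had a log2 fold change of 0.83 ± 0.16 (SE; edgeR adjusted p = 0.00180). The TPM ratio of Il1rn to the sum of Il1a and Il1b was 1.67, 1.87 and 2.24 in controls and 0.867, 1.05 and 1.63 after L-733,060. The TPM ratios did not overlap, and the antagonist transcript exceeded the agonists in every control but not in L-733,060 1. Their log2 difference was -0.74, with an exact two-sided permutation p of 0.1, the smallest that 3 against 3 samples can give, and 0.3 after adjustment over the 3 ratios tested. Taken from raw counts, with no scaling to length, the same ratio overlapped between groups (log2 difference -0.50, exact two-sided permutation p = 0.2). RefSeq lists 3 starts for Il1rn at chr2:24336860-24351491, and a count per gene does not separate its secreted from its intracellular forms.

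**Figure D3:**
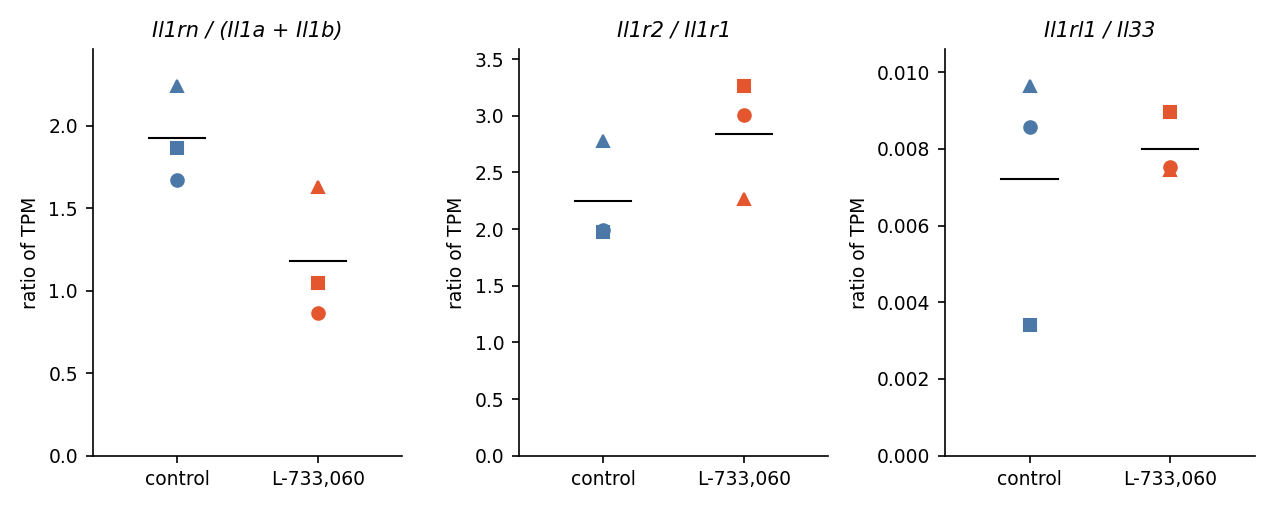
Ratios of TPM in each sample, with controls in blue, L-733,060 samples in orange, circles, squares and triangles for samples 1, 2 and 3, and a line at each mean. Il1rn over Il1a plus Il1b has TPM ratios that do not overlap, at means of 1.92 and 1.18, although they overlap when taken from raw counts.

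Il33, encoding a nuclear alarmin of barrier epithelium, had the smallest adjusted p of the 10. It was at 10.5, 10.8 and 12.1 CPM in controls and at 224, 167 and 140.1 CPM after L-733,060. Each group was tight compared with the gap between them. For Il33 the log2 fold change was 3.99 ± 0.18 (SE; edgeR adjusted p = 6.53e-08), and it ranked at position 181 among all tested genes by size of rise. Il33 lies at chr19:29925113-29960718, and the opposite-strand gene Gm41832, which overlaps it, had 1352 counts in controls and 1060 after L-733,060.

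Il1rl1, encoding the IL-33 receptor ST2, rose with its ligand but stayed rare. It had 5, 2 and 7 counts in controls and 90, 72 and 60 after L-733,060, or 0.208 ± 0.105 and 3.62 ± 0.85 CPM (SD, n = 3). The control samples lay at or near the detection floor, and the groups were far apart. The ratio of summed counts, scaled to depth, was 17, with a 95% counting interval from 9.92 to 31.6 that covers counting error only. In the fit Il1rl1 had a log2 fold change of 4.06 ± 0.40 (SE; edgeR adjusted p = 1.15e-05). The TPM ratio of Il1rl1 to Il33 was 0.00858, 0.00340 and 0.00964 in controls and 0.00754, 0.00897 and 0.00746 after L-733,060. These ratios overlapped, at a log2 difference of 0.28 (exact two-sided permutation p = 0.9) that became -0.19 without control 2. RefSeq lists 2 starts for Il1rl1, and soluble and membrane ST2 were not separated.

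Il18, encoding a cytokine stored as a precursor in epithelium, was the most abundant member in controls and rose modestly. It was at 46.6, 55.4 and 46.9 CPM in controls and at 73.7, 79.1 and 63.1 CPM after L-733,060. The lowest antagonist sample was still above the highest control. Its fitted log2 fold change was 0.54 ± 0.13 (SE; edgeR adjusted p = 0.00616), or 1.45-fold.

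Both receptors of IL-1 itself, the signalling chain and the decoy, rose too. Il1r1 was at 27.3, 28.3 and 25.1 CPM in controls and at 69.0, 75.3 and 61.2 CPM after L-733,060. All antagonist samples were at over 2 times every control, at a log2 fold change of 1.35 ± 0.13 (SE; edgeR adjusted p = 7.79e-06). Il1r2 was at 33.0, 33.8 and 42.2 CPM in controls and at 126, 149 and 83.9 CPM after L-733,060. Its antagonist samples were spread more widely, with L-733,060 3 lowest. The log2 fold change of Il1r2 was 1.72 ± 0.19 (SE; edgeR adjusted p = 3.26e-05). The TPM ratio of decoy to signalling receptor was 1.99, 1.97 and 2.78 in controls and 3.01, 3.26 and 2.26 after L-733,060. These ratios overlapped (log2 difference 0.34, exact two-sided permutation p = 0.2), so a shift of the balance was not shown at 3 against 3 samples.

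Il1rap, the accessory chain shared by the IL-1, IL-33 and IL-36 receptors, had the lowest log2 fold change of the 10, level with Il18. It was at 22.3 ± 2.09 CPM in controls and at 32.1 ± 3.21 CPM after L-733,060 (SD, n = 3). The groups were apart, with 24.1 CPM in the highest control and 28.6 CPM in the lowest antagonist sample. Il1rap had a log2 fold change of 0.53 ± 0.13 (SE), with an edgeR adjusted p of 0.00812 that reached 0.0429 without control 1.

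Casp1, the protease that cuts the IL-1β and IL-18 precursors, was at 2.87, 2.30 and 1.41 CPM in controls and at 15.5, 31.2 and 18.6 CPM after L-733,060. It was the one member whose lowest antagonist sample was L-733,060 1. Casp1 had a log2 fold change of 3.31 ± 0.31 (SE; edgeR adjusted p = 8.14e-06). Its neighbours on chromosome 9 are Casp4, the receptor caspase for intracellular lipopolysaccharide, and Casp12. Casp4 rose from 1.08 ± 0.25 to 13.2 ± 4.74 CPM (3.61 ± 0.31 SE on the log2 scale, edgeR adjusted p = 3.95e-06). Casp12 rose from 3.86 ± 0.596 to 39.7 ± 13.9 CPM (3.36 ± 0.24 SE on the log2 scale, edgeR adjusted p = 1.18e-06). The 3 caspases of this cluster all rose, against 21.4% of all tested genes, and differences between the 3 were not tested.

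Ordered by TPM, which divides by transcript length, controls ran from Il18 at 60.4 through Il1rn at 30.5, Il1r2 at 18.6, Il1a at 15.3, Il1r1 at 8.34, Il33 at 7.97, Il1rap at 4.10, Casp1 at 3.02 and Il1b at 0.679 to Il1rl1 at 0.0589. Il1r2 and Il1a, Il1r1 and Il33, and Il1rap and Casp1 overlapped between samples. After L-733,060, Il33 stood first at 127 TPM, above Il18 at 88.4, with no overlap between their samples. Il1r2 at 61.3 and Il1rn at 54.3 came next and overlapped. Casp1 at 30.3, Il1a at 30.2, Il1r1 at 21.4 and Il1b at 20.5 followed, each overlapping its neighbour, then Il1rap at 5.96, which overlapped Il1b. Il1rl1 stayed last at 1.01 TPM. The 2 transcripts that moved up most in order were Il33 and Casp1.

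The antagonist samples did not rise evenly. L-733,060 3 was lowest for 9 of the 10 genes, and 53.9% of all genes called higher were also lowest there. L-733,060 2 was highest for 7 members, and L-733,060 1 for Il1b, Il33 and Il1rl1. Neutrophil markers summed to 40.9 to 53.0 CPM in controls and 3349 to 5942 CPM after L-733,060, most of it lactoferrin (Ltf). Without Ltf they summed to 3.57 to 7.57 CPM in controls and to 291, 205 and 53.8 CPM in L-733,060 1 to 3, where S100a9 alone had 197, 111 and 24.5 CPM. S100a8, Csf3r and Mmp8 were highest in L-733,060 2. All 6 tested of 12 neutrophil markers rose (21.4% over all tested genes). Ly6g had at most 4 counts and Camp at most 2 in any sample, and Mpo was at 0 in controls. Among the tested ones, Cxcr2 and Mmp8 were under the level of the count filter in every control, and Csf3r reached it in control 3 only. These genes were tested only through the antagonist samples. Of 12 macrophage markers 10 rose (21.4% over all tested genes), their sum going from 97.0 to 107 CPM up to 338 to 383 CPM. Of 10 T and innate lymphoid cell markers, 6 were tested and these 6 rose (21.4% over all tested genes). The summed level of the list went from 4.09 to 5.78 CPM up to 18.4 to 28.6 CPM, most of it Thy1, which other cells also express. Apart from Thy1, the tested markers, Cd3d, Cd3g, Cd4, Cd8a and Nkg7, were under the level of the count filter in every control. They were tested only through the antagonist samples, so their direction was largely set by the filter. The part of these cells in the rise of the family was not tested. For mast cells, which carry ST2, 3 of 8 markers were tested, of which Hdc rose and Cpa3 and Kit fell. Hdc was under the level of the count filter in every control, and Cpa3 in every antagonist sample. Each was tested only through the other group, so its direction was largely set by the filter. The sum of the 8 markers went from 143 to 198 CPM down to 69.6 to 103 CPM, with Tpsab1 and Fcer1a at 0 counts in all 6 samples. Kit alone had 141 to 196 CPM in controls and 54.6 to 102 CPM after L-733,060, so the sum mainly describes Kit and does not measure mast cells.

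Several members sit in clusters, and their neighbours were read alongside. On chromosome 1 the 6 receptor genes Il1r2, Il1r1, Il1rl2, Il1rl1, Il18r1 and Il18rap lie in a row. All 6 rose, against 21.4% of all tested genes. Of these, Il1rl1 and Il18rap were under the level of the count filter in every control and were tested only through the antagonist samples. Beside the 6 receptor genes, Map4k4 (log2 fold change 0.27, edgeR adjusted p = 0.118) and Gm16894 (-0.06) did not pass the test. Around Il1a and Il1b on chromosome 2, the phosphate transporter gene Slc20a1 rose with a log2 fold change of 2.18 ± 0.15 (SE; edgeR adjusted p = 9.35e-07). Ckap2l, encoding a spindle protein, had 0.62 (edgeR adjusted p = 0.0131, a call lost without control 3 or L-733,060 2), and Gm14023 had -0.22 and did not pass. Around Il1rn, the IL-36 genes Il1f8, Il1f9 and Il1f6 rose and Il1f5 fell. Psd4, beyond Il1rn, had a log2 fold change of -0.36 (edgeR adjusted p = 0.0376), a call lost when L-733,060 1, control 1 or control 3 was left out and under scaling to total counts. Rises were thus not uniform along these clusters.

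**Figure D4:**
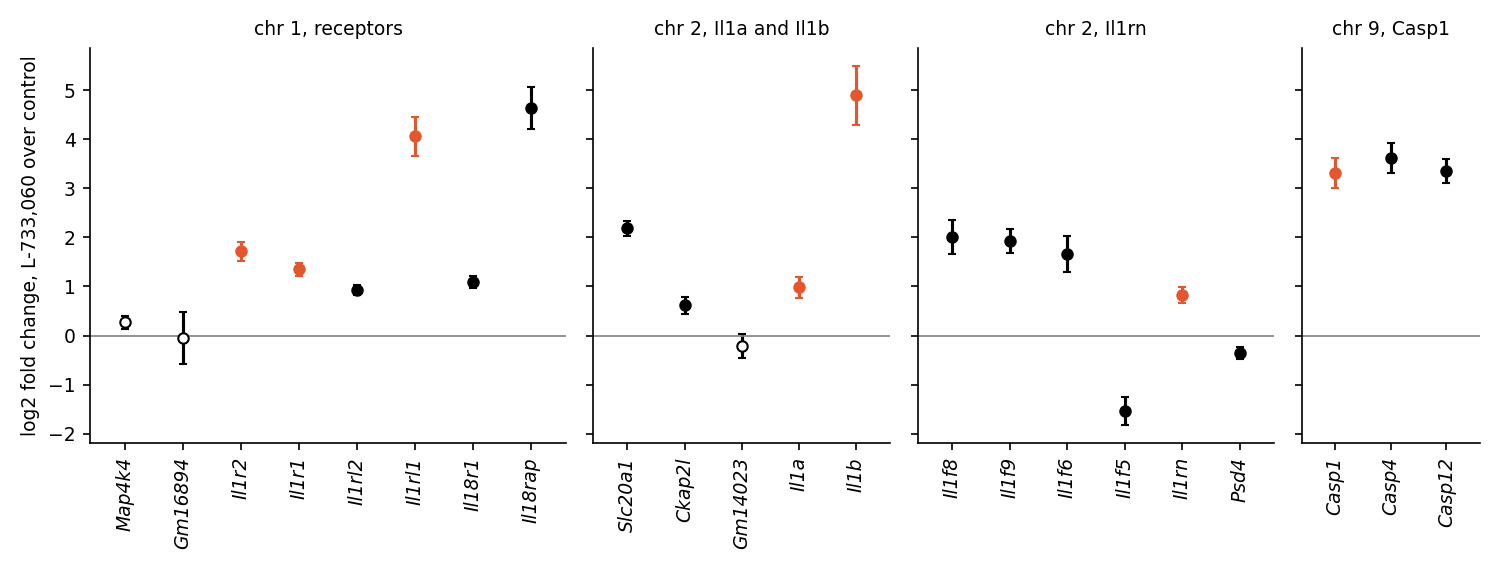
Log2 fold change with its standard error for the tested genes around the members, in chromosome order, with members in orange, other genes in black and open symbols for genes that did not pass an adjusted p of 0.05. All 6 receptor genes on chromosome 1 lie above 0, and Il1f5 lies at -1.54 between Il1f6 and Il1rn. Il1rl1 and Il18rap were tested only through the antagonist samples.

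The rest of the IL-1 family moved mostly the same way. Of 12 other ligands and receptors 9 were tested, 7 rose (21.4% over all tested genes), 1 fell (19.9% over all) and 1 did not pass, with a median log2 fold change of 1.09. Il18rap was under the level of the count filter in every control and was tested only through the antagonist samples. Il18rap, the signalling chain of the IL-18 receptor, rose from 0.215 ± 0.122 to 5.41 ± 1.78 CPM (4.63 ± 0.43 SE, edgeR adjusted p = 7.49e-06). Il18r1, its ligand-binding chain, rose from 24.5 ± 1.57 to 52.0 ± 1.25 CPM (1.09 ± 0.12 SE, edgeR adjusted p = 2.29e-05). Il1rl2, the IL-36 receptor, rose from 65.8 ± 2.21 to 125 ± 6.77 CPM (0.93 ± 0.11 SE, edgeR adjusted p = 4.62e-05). Its agonist IL-36γ, listed as Il1f9, rose from 48.5 ± 7.39 to 185 ± 69.4 CPM (1.93 ± 0.25 SE, edgeR adjusted p = 8.85e-05). The 2 other IL-36 agonist genes rose as well, Il1f8 by 2.01 and Il1f6 by 1.66 on the log2 scale. Il1f5, which encodes the IL-36 receptor antagonist, was the gene that fell, from 6.67 ± 1.08 to 2.30 ± 0.874 CPM (-1.54 ± 0.28 SE, edgeR adjusted p = 9.62e-04). The antagonist genes of the 2 systems moved in opposite directions, Il1rn upward and Il1f5 downward. Il18bp, encoding a soluble IL-18 inhibitor and named after its values were seen, had 0.91 with an edgeR adjusted p of 0.0233, a call lost when control 2, control 3 or L-733,060 2 was left out (0.114 at most).

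Among 24 inflammasome and cytokine-processing genes, 17 were tested, 9 rose (21.4% over all tested genes), 2 fell (19.9% over all) and 6 did not pass, with a median log2 fold change of 0.49. Of the risers, Nlrp3, Nlrc4, Aim2 and Mefv were under the level of the count filter in every control and were tested only through the antagonist samples. The calls of Nlrc4 and Casp8 were lost without control 1 or control 3, and the higher count was 7 without control 1. That of Casp8 was also lost without L-733,060 1 or L-733,060 2. Nlrp6 (36 counts in controls and 5 after L-733,060), Cma1 (33 and 13), Mcpt4 (27 and 7) and Nlrp1a (9 and 12) were not tested. Casp4 and the DNA sensor Aim2, at 0.361 and 4.91 CPM (3.74, edgeR adjusted p = 1.39e-05), were among the risers. Mefv, encoding pyrin, had 1 count in the controls together and 131 in the antagonist samples, a depth-scaled ratio of 140.4 with a 95% counting interval from 24.8 to 5588. Without control 1, which held that count, Mefv was at least 31.5-fold higher. Capn1, a calpain, fell from 440 ± 71.9 to 158 ± 49.2 CPM (-1.47 ± 0.20 SE, edgeR adjusted p = 1.32e-04). The other gene that fell was the sensor Nlrp1b (-1.59). The adaptor Pycard and the sensor Nlrp3 were, like Nlrp1b, chosen after their values were seen. Pycard was at 149 and 177 CPM (0.25, edgeR adjusted p = 0.0998), and Nlrp3 had 6 and 73 counts, with a fitted log2 fold change of 3.64, or 5.35 without control 3. The adaptor was thus abundant in both groups, and Nlrp3 was scarce in both.

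Of 21 genes of the IL-1 receptor signalling chain all were tested, 5 rose, 4 fell and 12 did not pass, with a median of 0.09. Without control 2 the higher count was 3, and the lower count was 2 under scaling to total counts and when L-733,060 1, L-733,060 2, control 1 or control 3 was left out. The adaptor Myd88 rose from 50.9 ± 2.18 to 77.6 ± 7.49 CPM (0.61 ± 0.12 SE, edgeR adjusted p = 0.00166). Irak2, a kinase of the receptor complex, fell from 96.0 ± 13.2 to 46.7 ± 4.34 CPM (-1.04 ± 0.14 SE, edgeR adjusted p = 9.35e-05). Irak3, an inhibitor of the same complex, rose from 1.16 ± 0.464 to 5.99 ± 1.6 CPM (2.37 ± 0.31 SE, edgeR adjusted p = 9.80e-05). Nfkbib, an NF-kB inhibitor, fell from 23.0 to 15.1 CPM (-0.61 ± 0.15 SE, edgeR adjusted p = 0.00749). Calls in the chain were near the shares over all tested genes, 21.4% higher and 19.9% lower.

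Of 20 genes known to be induced by IL-1 through NF-kB, 17 were tested, 14 rose (21.4% over all tested genes), 1 fell (19.9% over all) and 2 did not pass, with a median of 2.09, and the lower count was 2 without control 2 or without the count filter. Ccl2 and Saa3 were under the level of the count filter in every control and were tested only through the antagonist samples. Il6 (1 count in controls and 34 after L-733,060), Csf2 (4 and 0) and Ccl20 (1 and 3) were not tested. Nfkbiz, 1 of the risers, lost its call when control 2, control 3, L-733,060 1 or L-733,060 2 was left out. The collagenase Mmp13 rose from 0.611 to 36.4 CPM (5.87 ± 0.32 SE, edgeR adjusted p = 1.49e-07). The monocyte chemokine Ccl2 rose from 0.317 to 4.43 CPM (3.78 ± 0.31 SE, edgeR adjusted p = 2.89e-06). Icam1, a leukocyte adhesion molecule, rose from 6.32 to 26.9 CPM (2.09 ± 0.19 SE, edgeR adjusted p = 6.46e-06). Csf3, the granulocyte growth factor, rose from 0.420 to 6.96 CPM (4.02 ± 0.40 SE, edgeR adjusted p = 1.20e-05). The gene that fell was Sod2, named after its value was seen, at -0.46. These genes answer to many other signals too, and the list does not measure IL-1 activity.

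Of 14 type 2 genes downstream of IL-33, 7 were tested and all 7 rose, against 21.4% of all tested genes, with a median of 2.33, also with Chil3 at its bound. Chil3, Ccl11 and Gata3 were under the level of the count filter in every control. They were tested only through the antagonist samples, so their direction was largely set by the filter. Retnla (14 counts in controls and 2 after L-733,060) and Ccl17 (13 and 3) were not tested. Arg1, encoding an arginase, rose from 182 ± 20.7 to 758 ± 89.9 CPM (2.06 ± 0.14 SE, edgeR adjusted p = 6.59e-07), and its cell source was not tested. The receptor chains Il4ra, from 8.5 to 47.0 CPM (2.47 ± 0.19 SE, edgeR adjusted p = 1.55e-06), and Il13ra1, from 39.1 to 163 CPM (2.06 ± 0.16 SE, edgeR adjusted p = 2.15e-06), rose too. Chil3, a chitinase-like protein, had 0 counts in the controls and 136 in the antagonist samples, which is at least 48.6-fold higher when the control group is set to 3 counts in all. This bound ran from 31.5 to 58.1 with 1 sample left out, and was lowest without control 3. The cytokines themselves were near or under the floor, with 1 and 0 counts of Il4, 4 and 5 of Il5, and 0 of Il9 and Il13 in both groups. The list of type 2 genes does not measure IL-33 activity. Of 9 genes downstream of IL-18 only 3 were tested, too few to set against the share over all tested genes, and Gzmb (2.48, edgeR adjusted p = 0.00626) and Cxcl10 (2.77, edgeR adjusted p = 0.00349) rose while Il12rb2 did not pass (0.18). Without control 3 these rises were larger, at 3.56 for Gzmb and 3.47 for Cxcl10. Gzmb was under the level of the count filter in every control. Ifng had 0 counts in all 6 samples.

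**Figure D5:**
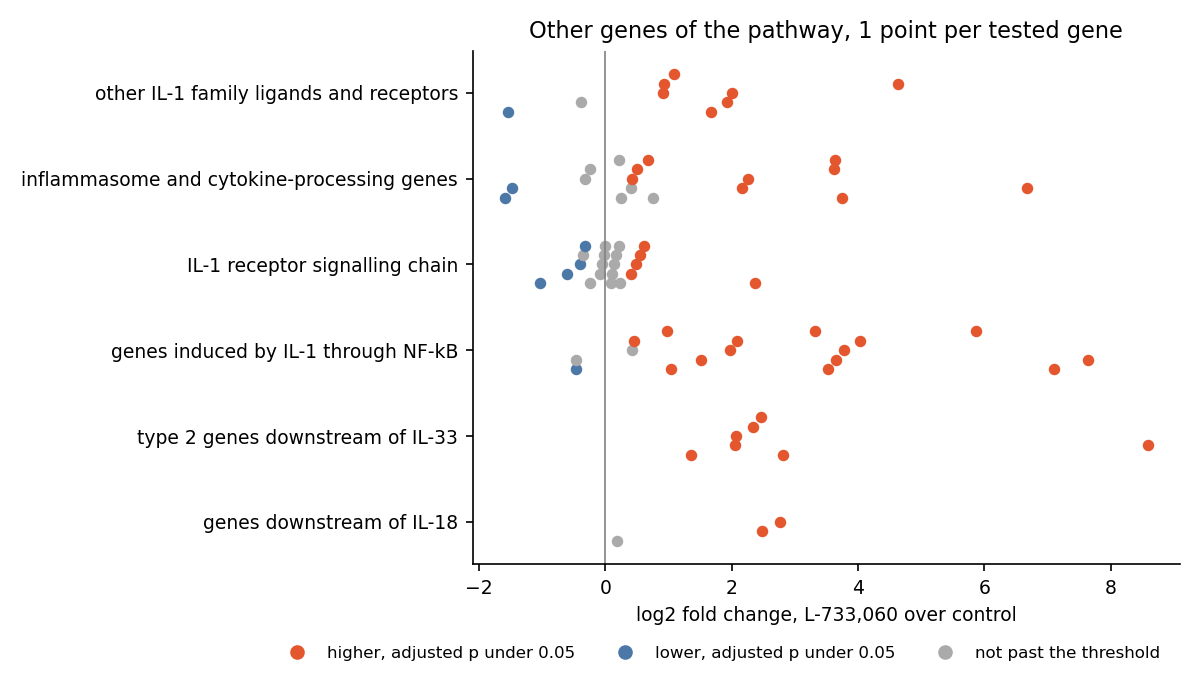
Fitted log2 fold change of each tested gene in 6 lists of the pathway, with genes past an adjusted p of 0.05 in orange where higher and blue where lower, and others in grey. The points of the IL-1 receptor signalling chain gather near 0, at a median of 0.09, while those of the NF-kB list spread upward around 2.09. Values of genes nearly absent from controls, such as Chil3 and Mefv, depend on the prior count.

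The tested genes most like Il33 over the 6 samples, by Pearson r of log2 CPM, were Akr1b8 (0.9997), Slc11a1 (0.9995) and Crabp2 (0.9994). Likeness of this kind was common: 2322 tested genes had r above 0.9 with Il33. These values describe 6 libraries that fall in 2 groups. Those most like Il1rap, the member of smallest change, were Becn1 (0.9994), Cept1 (0.9989) and Pgm2 (0.9987), with 1939 genes above 0.9. Becn1 itself did not pass the test (log2 fold change 0.09, edgeR adjusted p = 0.510), so likeness in pattern did not come with a change of the same size.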

How the data were processed

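Raw counts per gene and TPM (transcript level per length and depth) were deposited by the authors with a gene length for each gene. Per the submitters' processing notes, bcl2fastq, HISAT2 2.1.0 and HTSeq 0.11.2 were used with the mm10 build. The sources used here do not give annotation release, strand setting or other parameters. Deposited TPM values equal the deposited counts divided by the deposited length and rescaled, within 4.96e-06. Libraries were made with the NEBNext Ultra RNA kit from poly(A) RNA, per the labels' protocols. Without a known strand setting, reads of a member and of an overlapping opposite-strand gene cannot be told apart, which touches Il1a, Il1b, Il33, Il18, Il1r2 and Il1rap, overlapped by 7 such genes.

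From the deposited counts, edgeR 4.0.16 in R 4.3.3 was run on all 6 samples after filterByExpr (minimum count 10, minimum total 15), with TMM scaling and the quasi-likelihood test. CPM values use TMM-scaled totals, p-values are Benjamini-Hochberg adjusted over all 15712 tested genes, and a call means an adjusted p under 0.05. The SE is that of the fitted log2 fold change. A total of 3 TPM ratios were compared by exact permutation over samples. The script was tested on simulated counts. Alternatives were DESeq2 1.42.0 size factors and its Wald test, no filter, a replicate block, leaving out each sample, and scaling to total counts, chosen after seeing the data. Named genes are all 10 members, up to 4 of smallest p per list, 3 genes most like Il33 and Il1rap, and tested cluster neighbours. Genes named only because of the count filter or of a lost call were chosen after their values were seen. The members and lists were chosen with earlier results of these data known. Gene positions and names came from RefSeq tables (GRCm38.p6), which matched 39063 of 39089 genes.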

Additional observations from a re-analysis of the deposited data

How the results depend on the processing

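All 10 genes kept their direction and their call under each alternative run: DESeq2 size factors, DESeq2's Wald test, no filter, the replicate block, scaling to total counts and each sample left out. With 1 sample left out the log2 fold change ran from 4.34 to 5.33 for Il1b, 3.79 to 4.12 for Il33, 0.79 to 1.22 for Il1a and 0.45 to 0.59 for Il1rap. The ratio of Il1rl1 to Il33 changed sign, its log2 difference running from -0.19 without control 2 to 0.56, and the cause was not tested. That of Il1rn to the agonists ran from -1.0 to -0.55, and that of Il1r2 to Il1r1 from 0.23 to 0.50.

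Over all tested genes 3367 were higher and 3129 lower. Scaling to total counts gave 3761 and 2642, moving the median of all genes to 0.05. With 1 sample left out, 2677 to 3722 were higher and 2354 to 3788 lower. Same-numbered samples deviated together at correlations of -0.02, 0.27 and 0.13, so the numbers were not taken as pairs. With the replicate block 3609 genes were higher and 3462 lower, the 10 members among the higher, and the paired exact p of the 3 ratios was 0.25, 0.5 and 1.0. Depth limits Il1b and Il1rl1, whose controls had 42 and 14 counts in all.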
